A study of Mus musculus with 12 samples.

Results

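Cytosolic ribosomal proteins are the protein parts of the ribosome, the particle that translates mRNA in the cytosol. Genes were chosen by symbol alone: every gene with at least 1 probe set assigned to it and to no other gene, and with a symbol that starts with Rpl or Rps, leaving out the Rps6k kinases and symbols with "-ps" in them. This gave 50 genes of the 18193 genes that have such a probe set. Of these, 26 carry a large subunit symbol and 23 a small subunit symbol. The other gene, Rps19bp1, met the symbol rule but encodes a binding partner of Rps19 and was kept apart from both subunits. Each gene was followed through its brightest one-gene probe set in each tissue.

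The large subunit joins amino acids and the small subunit reads the mRNA. Ribosomal protein genes are transcribed at a high rate in nearly every cell, and many of their mRNAs begin with a stretch of pyrimidines, the terminal oligopyrimidine tract, through which their translation follows nutrient and growth factor signals relayed by mTORC1. Some members also act away from the ribosome: Rpl11 binds the p53 regulator Mdm2, Rpl13a takes part in silencing inflammatory transcripts, Rps3 takes part in DNA repair and Rps6 is the substrate of S6 kinase.

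The data were Affymetrix Mouse Genome 430 2.0 arrays of C57BL/6J adult mice. The 8 liver arrays came from WT, Dscr-1 null, ApoE null and Dscr-1;ApoE double null mice, 2 arrays per genotype. Dscr-1 (Rcan1) encodes an inhibitor of calcineurin, and ApoE is the apolipoprotein through which lipoprotein remnants are cleared. The labels give all livers a high-fat diet of 12 weeks, whereas the study's text describes its liver arrays on normal chow. The 4 aortic arrays came from primary endothelial cells cultured from the aorta, with 2 arrays for ApoE null and 2 for double null mice, so that ApoE is absent from both aortic groups and no aortic WT or Dscr-1 null cells were compared. No sort of liver cells is described, so an array does not tell hepatocytes from the other cells of the organ, and here fewer cells of a type and less RNA per cell cannot be told apart. The labels do not say whether an array held 1 mouse or a pool, and p-values measure only the spread between arrays.

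Apoe read 19937.4 to 21510.3 on the ApoE-intact liver arrays and 79.8 to 305.0 on the ApoE-lacking arrays. The brighter Rcan1 probe set was not lower on the arrays labelled Dscr-1 null, at 255.2 and 353.1, both above the WT arrays, and read 10.09 and 10.26 against 9.99 and 9.92 (log2) in aortic double null and ApoE null cells. The sources used here do not give the deleted part of the gene, so Rcan1 gives no check of the Dscr-1 labels. Hprt read 46.9 and 54.8 in WT and 65.9 on Dscr-1 null replicate 2, but 819.7 to 1018.7 on the other 5 liver arrays, so that the 2 Dscr-1 null arrays differed in this gene. All 10 hepatocyte markers were above the array median on every liver array and all 12 endothelial markers on every aortic array. Among the liver arrays ApoE null replicate 1 stood out: its median signal was 44.7 against 32.2 to 37.6, and its mean correlation with the other arrays was 0.8393 against 0.8746 to 0.8851. For ApoE null livers against WT and against double null livers, the counts of direction and overlap and the medians are given also without it. Counts over 1.5-fold, counts by probe set and some counts over pooled genotypes are given only with it. The summed signal of 11 macrophage and Kupffer cell markers averaged 6250 for WT, 6440 for Dscr-1 null, 11900 for ApoE null and 17600 for double null livers, and its part in the results below was not tested.

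The start sites of the members were examined first, since the tract at the start is what these mRNAs are known for. RefSeq start windows on GRCm38.p6 were found for 44 of the 50 members. An unbroken run of at least 8 C and T bases lay within 25 bases of the annotated start in 23 of the 44 (52.3%), against 22.8% of the 11838 genes tested in liver that have a window. The large subunit held it in 14 of 24 windows and the small subunit in 9 of 19. The letters CCGGAAG, on either strand and so also CTTCCGG, which can overlap such a run, occurred in 21 of the 44 windows of 300 bases (47.7%) and in 16.7% of the genes tested. TATAAA, on either strand, occurred in 6 of 44 (13.6%) against 10.6%. The following 30 bases, 15 before the annotated start and 15 from it on, are shown for the members on which the results below turn and for the member with the longest run in view, Rpl7a. Capitals mark the longest run of C and T in each window.

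Rplp0, chr5:115559452-115559481, plus strand: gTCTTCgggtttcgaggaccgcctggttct
Rps3, chr7:99483695-99483724, minus strand: CTTgcaagggtcgccgcgctgcgcggcgtc
Rpsa, chr9:120127751-120127780, plus strand: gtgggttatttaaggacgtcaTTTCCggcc
Rpl35, chr2:39005117-39005146, minus strand: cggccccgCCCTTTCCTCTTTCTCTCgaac
Rpl41, chr10:128549154-128549183, minus strand: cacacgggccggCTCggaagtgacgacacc
Rps27, chr3:90213634-90213663, minus strand: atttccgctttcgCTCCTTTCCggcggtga
Rpl7a, chr2:26910792-26910821, plus strand: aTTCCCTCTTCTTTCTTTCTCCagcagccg

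The runs at Rpl35 and Rps27 cross the annotated start, with a C as the first transcribed base, whereas the windows of Rplp0, Rps3, Rpsa and Rpl41 hold no run of 8. Starts in the annotation can be off by some bases, so a window without a run says only that these letters are not there.

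In liver, 47 of the 50 members passed the filter on low values, a signal above the array's median on at least 2 of the 8 arrays. Rpl3l, Rpl39l and Rps16 did not. Rpl3l is the muscle form of Rpl3 and Rpl39l the testis form of Rpl39, and they read 1.9 to 8.8 and 2.6 to 33.3. The one-gene probe set of Rps16 read 1.3 to 26.7, whereas the brightest probe set that Rps16 shares with other loci read 4792.3 to 8822.0. In aortic cells 48 members passed, all but Rpl3l and Rps16. Members varied less between arrays of one genotype than genes at large. The median SD within genotype was 0.2267 on the log2 scale in liver against 0.4506 over all 14758 genes tested, and 0.0561 in aortic cells against 0.1663 over 11647 genes. Genes were not matched for signal here, and most members are bright. Some dim members varied more in liver, such as Rps27 (0.7365) and Rpl39 (0.6378), and others did not, such as Rpl7l1 (0.1338).

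No member was called in any of the 8 comparisons, at a limma adjusted p under 0.05 over all probe sets tested. Few genes were called at all: 0.00678% of the genes tested in Dscr-1 null against WT livers, 0.0136% in ApoE null against WT, 0.0136% in double null against WT, 0.0% in double null against ApoE null, 0.0% for the interaction, 0.00678% in all ApoE-lacking against all ApoE-intact livers, 0.0% in all Dscr-1-lacking against all Dscr-1-intact livers, and 0.0172% in aortic cells. In the 3 comparisons without a call over all genes, limma's unadjusted p was under 0.05 for 417 genes higher and 357 lower in double null against ApoE null, for 305 above and 329 below 0 in the interaction, and for 328 higher and 343 lower without Dscr-1. At an unadjusted p under 0.05, Rps27 passed in ApoE null against WT livers, where it was lower (2.24% of all genes were lower at that p and 3.46% higher), and in double null against ApoE null livers, where it was higher (2.83% higher, 2.42% lower). Rps4l passed in aortic cells, where it was higher (2.67% higher, 2.28% lower). No other member passed, while of all genes 1.92% were higher and 1.9% lower in Dscr-1 null against WT, 3.51% and 1.78% in double null against WT, 2.07% and 2.23% in the interaction, 3.94% and 1.74% without ApoE, and 2.22% and 2.32% without Dscr-1. With 2 arrays per genotype the median standard error of a member's difference between liver genotypes was 0.3686 on the log2 scale, and the lack of calls does not show that levels were alike.

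**Figure D1:**
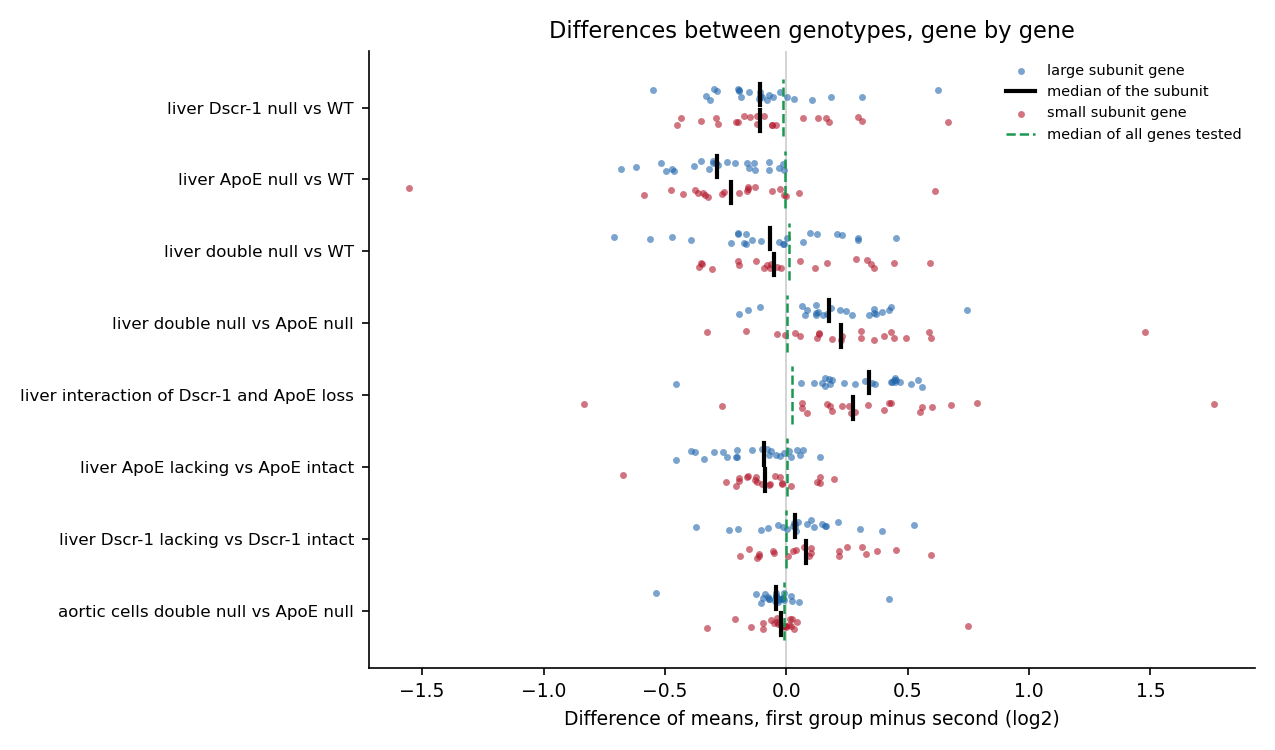
Each point is 1 gene of the large (blue) or small (red) subunit. The horizontal axis gives the difference of group means on the log2 scale, first group minus second, for the 7 liver comparisons and the aortic one. Black bars mark the subunit medians and green dashes the median of all genes tested. Both medians lie left of all genes in ApoE null against WT livers (-0.286 and -0.227) and right of them in double null against ApoE null livers (0.176 and 0.227).

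Loss of Dscr-1 alone was examined first. In Dscr-1 null against WT livers 34 of 47 members were lower, with a median difference of -0.109 for the large and -0.108 for the small subunit and of -0.013 for all genes. The groups did not overlap for 5 members that were higher (16.3% of all genes) and 19 that were lower (16.9%). Of the members, 2 differed by more than 1.5-fold, Rps25 and Rpl14, against 23.9% of all genes. Both are dim on their one-gene probe sets, at 40.2 to 130.2 and 12.5 to 57.1 over the 8 arrays. A bright probe set that Rps25 shares with other loci read 4926.2 and 3807.9 in WT and 5036.7 and 4245.4 in Dscr-1 null livers, with overlap. Rpl14 read 41.2 and 22.2 in WT, 55.0 and 57.1 in Dscr-1 null, 12.5 and 53.5 in ApoE null livers, and 42.7 and 26.6 in those of the double null. Its 2 Dscr-1 null arrays were thus the highest of the 8, but on none of the 5 brighter probe sets that it shares with a pseudogene were both Dscr-1 null arrays highest. The brightest of these read 2413.8 and 2048.1 in WT, 2665.0 and 2168.4 in Dscr-1 null and 3020.5 and 3687.6 in double null livers.

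Loss of ApoE came with lower members on average. In ApoE null against WT livers 45 of 47 members were lower, all 24 of the large subunit and 20 of 22 of the small, while 50.4% of all genes were lower. The median difference was -0.286 for the large and -0.227 for the small subunit against -0.004 for all genes. The groups did not overlap for 19 members, all lower, against 16.7% of all genes, and for 0 that were higher, against 17.3%. More than 1.5-fold separated the groups for 5 members, against 29.1% of all genes. The 2 ApoE null arrays did not share this equally. On replicate 1 the median member deviated from its own mean over the arrays by -0.307 (large) and -0.4376 (small) on the log2 scale, with 20 of 24 and 21 of 22 members below their mean, while on replicate 2 the medians were -0.0522 and 0.0534. Replicate 1 was the lowest of the 8 arrays for 29 of 47 members, against 17.8% of all genes. Without it 27 of 47 members were lower than WT, and the medians were -0.1617 for the large and 0.0005 for the small subunit. The remaining ApoE null array was below both WT arrays for 23 members (33.5% of all genes) and above both for 11 (33.3%), a wider count than before since only 1 array had to lie apart. On ApoE null replicate 1 the 3′ to 5′ signal ratio of the actin control probes was 6.83, within the 3.15 to 7.84 of the other arrays, and that of Gapdh was 2.93, within 1.91 to 3.08. Only double null replicate 2 was higher in both, at 7.84 and 3.08, and ApoE null replicate 2 read 4.01 and 1.91. The part of RNA quality was not tested. The summed hepatocyte markers of ApoE null replicate 1 were the highest, 299000 against 194000 to 228000.

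**Figure D2:**
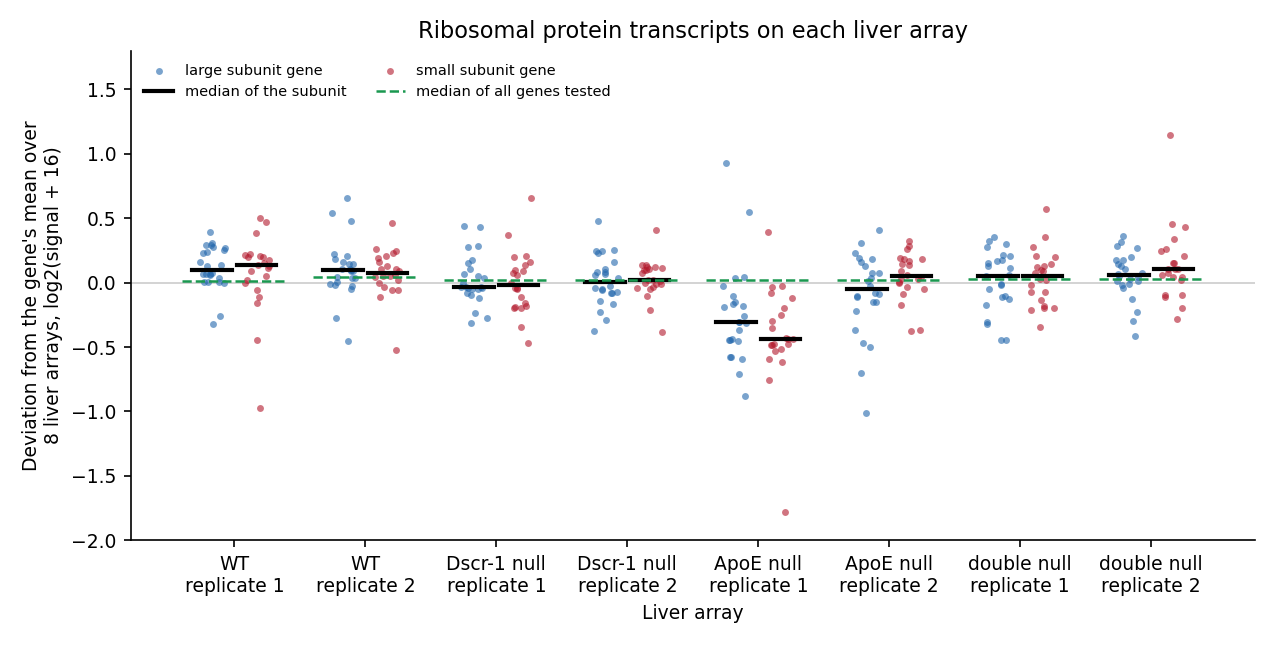
Each point is 1 large (blue) or small (red) subunit gene. The vertical axis gives its deviation, on 1 liver array, from its own mean over the 8 liver arrays on the log2(signal + 16) scale. Black bars mark the subunit medians and green dashes the median of all genes tested, which lies near 0 throughout. ApoE null replicate 1 sits lowest, with subunit medians of -0.307 and -0.4376, while all other subunit medians lie between -0.0522 and 0.1341.

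The widest difference of a member between 2 liver genotypes was that of Rps27, a zinc finger protein of the small subunit. It read 109.2 and 106.0 in WT, 98.3 and 73.7 in Dscr-1 null, 9.8 and 52.6 in ApoE null livers, and 53.8 and 180.3 in those of the double null. Both ApoE null arrays were the lowest, and the double null arrays lay on either side of the WT arrays. The log2 difference was -1.55 ± 0.62 (SE) in ApoE null against WT (unadjusted p = 0.0374, limma adjusted p = 0.74) and 1.48 ± 0.62 in double null against ApoE null (unadjusted p = 0.0454, limma adjusted p = 0.743). Without ApoE null replicate 1 these were -0.85 and 0.77. A probe set shared by Rps27 and its retrogene Rps27rt was far from background and read 5432.1 and 5122.2 in WT, 5377.1 and 4572.0 in ApoE null livers, and 6977.2 and 7483.1 in those of the double null, so that its ApoE null and WT arrays overlapped. The value of 9.8 on ApoE null replicate 1 lies under that array's median of 44.7.

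In double null against WT livers 28 of 47 members were lower and 19 higher, with medians of -0.067 (large) and -0.049 (small) against 0.011 for all genes. The groups did not overlap for 9 members that were higher (19.7% of all genes) and 11 that were lower (18.6%), and 2 members differed by more than 1.5-fold (27.1%).

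Members with both arrays of 1 genotype beyond all 6 other liver arrays were then counted. Both double null arrays were above all others for 8 of 47 members, against 4.14% of all genes, and both ApoE null arrays were below all others for 7 members, against 4.0%. Both WT arrays were above every mutant array for 2 members (3.8% of all genes) and below for 0 (4.23%). Both Dscr-1 null arrays were above for Rpl14 alone (2.27%) and below for 0 (3.23%). The double null arrays were below the others for 1 member, Rps27l (3.6%), and the ApoE null arrays above for 0 (3.62%). Without ApoE null replicate 1, the other ApoE null array was below all others for 12 members (14.5% of all genes), and the double null arrays were above all others for the same 8 members (6.5%). The other ApoE null array was then also above all others for 5 members. The arrays of WT, of Dscr-1 null and of double null livers were each below all others for 2 members. The shares of all genes for these further counts are not given here.

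The 8 members highest in double null livers were Rpl13a, Rpl35, Rpl37a, Rpl7l1, Rps2, Rps20, Rps29 and Rpsa. Rpsa is the 40S protein that also serves as a laminin receptor precursor. Its signal was 4828.0 and 6583.3 in WT, 7363.8 and 6651.1 in Dscr-1 null, 4715.0 and 6720.3 in ApoE null livers, and 7985.8 and 9071.1 in those of the double null. The double null arrays did not overlap any other genotype, and the difference from WT was 0.59 ± 0.38 (95% interval -0.28 to 1.47, limma adjusted p = 0.916), a 1.51-fold higher mean on the log2 scale. Rpl35, a large subunit protein, read 4973.8 and 4873.2 in double null livers and 3303.3 to 4149.2 on the 6 other arrays. The double null arrays lay closer to each other than to any other array, while the difference from WT was only 0.30 ± 0.34 (limma adjusted p = 0.956). Rpl13a read 7986.0 and 8877.4 in double null livers against 7278.9 and 7063.7 in WT, and Rps29 read 14760.2 and 15209.8 against 11498.5 and 11852.7. Further probe sets of these genes did not all repeat this order. For Rpl37a, a further probe set read 2654.8 and 2436.5 in double null against 2908.3 and 2913.9 in WT livers. For Rpl13a, a further probe set read 2719.2 and 2683.8 against 3001.4 and 2894.7, and another had double null highest at 1267.8 and 1270.3. Rpl35 had double null highest again on a further probe set (3432.0 and 3382.8) and overlap on others. Rps29 likewise showed both.

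Of these 8 members, 6 were followed through probe sets with names ending in _x_at, the mark for probes that can also bind transcripts of other genes. Among the 13 members with such a probe set 6 had the double null arrays highest (46.2%), against 2 of the 34 others (5.88%). Over all genes the shares were 6.21% with that ending and 4.05% without. The median difference of double null from WT livers was 0.1667 for the 13 members and -0.0905 for the 34 others. The part of related transcripts in these signals was not tested.

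Rpl7l1 and Rpsa were the 2 exceptions with other probe sets. Rpl7l1, a paralogue of Rpl7, read 298.9 and 236.9 in WT, 324.5 and 343.4 in Dscr-1 null, 230.3 and 200.4 in ApoE null livers, and 376.6 and 364.2 in those of the double null. All 4 arrays without Dscr-1 were above all 4 arrays with it, as for 2 of 47 members, the other being Rps20, against 1.5% of all genes. The Rpl7l1 difference was 0.53 ± 0.24 (95% interval -0.04 to 1.09, limma adjusted p = 0.869). Its other probe sets did not repeat this order: 1 read 124.8 and 207.8 in WT, 279.7 and 169.3 in Dscr-1 null, 104.5 and 144.9 in ApoE null livers, and 173.3 and 221.7 in those of the double null. Its parent Rpl7 showed no such order, with 3646.1 to 4438.9 over the 8 arrays.

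Rps27l, the paralogue of Rps27 that p53 induces, was the one member lowest in double null livers. It read 5142.5 and 5127.1 in WT, 4764.4 and 5097.4 in Dscr-1 null, 4678.5 and 5450.7 in ApoE null livers, and 4150.2 and 3906.3 in those of the double null. The difference from WT was -0.35 ± 0.34 (95% interval -1.13 to 0.43, limma adjusted p = 0.952). The other probe sets of Rps27l read 2518.8 and 2617.9, and 2582.4 and 2997.3, on the double null arrays. On the former both lay below all other arrays (2626.9 to 3347.7), and on the latter they overlapped with ApoE null replicate 2 at 2958.3.

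Rplp0 and Rps3 were the 2 members with both WT arrays above every mutant array. Rplp0 anchors the acidic stalk that recruits elongation factors. It read 2841.4 and 3196.8 in WT, 2110.7 and 2715.3 in Dscr-1 null, 1393.9 and 2512.5 in ApoE null livers, and 1832.3 and 2270.9 in those of the double null. Its log2 difference from WT was -0.33 ± 0.41 in Dscr-1 null, -0.68 ± 0.41 in ApoE null livers, and -0.56 ± 0.41 in those of the double null, with limma adjusted p of 1.0, 0.863 and 0.934. Its stalk partner Rplp2 overlapped between genotypes, with 3608.6 and 3070.5 in WT against 1999.0 to 3401.3 on the mutant arrays, and Rplp1 was not analysed here.

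Rps3 read 4560.1 and 4129.2 in WT and 2728.2 to 3557.1 on the 6 mutant arrays. The lower of the WT arrays was thus above the highest mutant array, by 0.2143 on the log2 scale. Its log2 difference was -0.43 ± 0.35 in Dscr-1 null, -0.48 ± 0.35 in ApoE null livers, and -0.35 ± 0.35 in those of the double null, with limma adjusted p of 1.0, 0.885 and 0.953. A dim further probe set of Rps3, at 9.3 to 96.9, had overlapping genotypes.

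**Figure D3:**
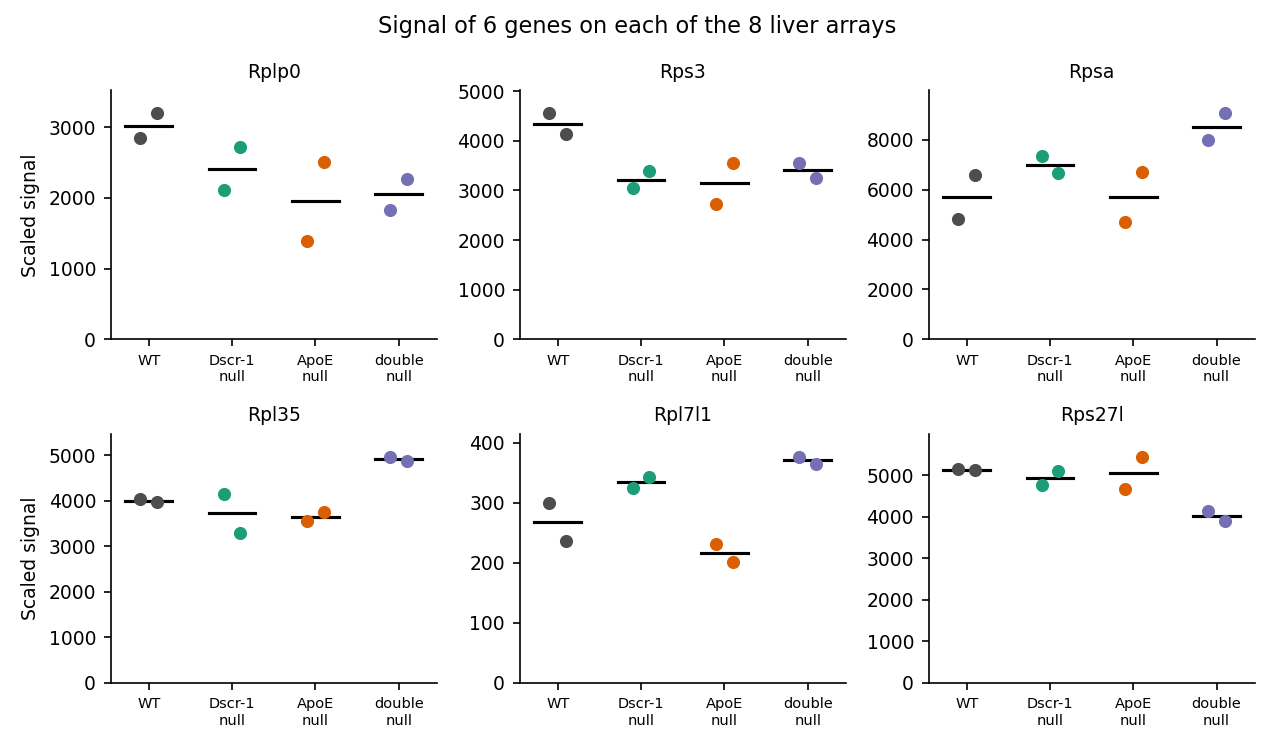
Scaled signal, on a linear axis from 0, of 6 genes on the 8 liver arrays. Each point is 1 array and each bar the mean of the 2 arrays of a genotype. WT is highest for Rplp0 and Rps3, double null is highest for Rpsa, Rpl35 and Rpl7l1, and double null is lowest for Rps27l.

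Rpl41, the smallest ribosomal protein, had the widest range of differences between its probe sets in Dscr-1 null against WT (1.6175) and in double null against WT livers (1.9091), while in ApoE null against WT it was Rpl37a (1.8473) and in double null against ApoE null Rps20 (2.0581). The probe set that stands for it read 2424.2 and 3251.9 in WT, 1702.8 and 2153.0 in Dscr-1 null, 1500.8 and 2552.2 in ApoE null livers, and 1662.3 and 1758.9 in those of the double null. Here ApoE null replicate 2 overlapped with WT, and the differences from WT were -0.55 ± 0.41, -0.52 ± 0.41 and -0.71 ± 0.41 (limma adjusted p of 1.0, 0.892 and 0.9). A further probe set of the same gene read 4971.5 and 3750.0 in WT, 1157.6 and 1821.7 in Dscr-1 null, 939.2 and 2064.9 in ApoE null livers, and 1101.1 and 1143.7 in those of the double null. On it both WT arrays were above every mutant array, and the log2 differences were -1.56, -1.62 and -1.93 (each ± 0.48), with limma adjusted p of 0.89, 0.638 and 0.671. The 2 dim probe sets of Rpl41, at 37.9 to 71.7 and 4.4 to 39.6, had overlapping genotypes.

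Rps7 also had a probe set with WT highest, at 2339.0 and 1803.5 against 771.4 to 1687.7 on the mutant arrays, while the brighter one that stands for it read 6133.6 and 5446.1 in WT and overlapped with the mutants at 4526.0 to 5635.1. Further probe sets of Rps10 (3240.4 and 2959.0 against 2168.0 to 2887.9) and Rpl37a (2908.3 and 2913.9 against 1360.3 to 2654.8) had WT highest too. A dim Rpl37a probe set had WT lowest, at 86.8 and 95.4 against 115.1 to 316.6. Rps20 was high in double null livers on 2 bright probe sets, at 6435.6 and 7081.9 on one and 4084.9 and 4399.0 on the other, and low there on a dim one, at 4.0 and 19.5 against 28.4 to 81.7, while the other dim one read 2.0 to 108.2 with overlap. Of the 21 members with several probe sets above the filter, all probe sets had the same sign in 6 in Dscr-1 null against WT livers, 10 in ApoE null against WT, 6 in double null against WT and 12 in double null against ApoE null. The 104 probe sets above the filter that several genes share, among them a ribosomal protein gene, gave 83 lower in ApoE null against WT and 88 higher in double null against ApoE null livers, and 0 of them were called, with 2 and 1 at an unadjusted p under 0.05 in limma. Without ApoE null replicate 1 these counts were 61 lower and 64 higher of the 104.

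**Figure D4:**
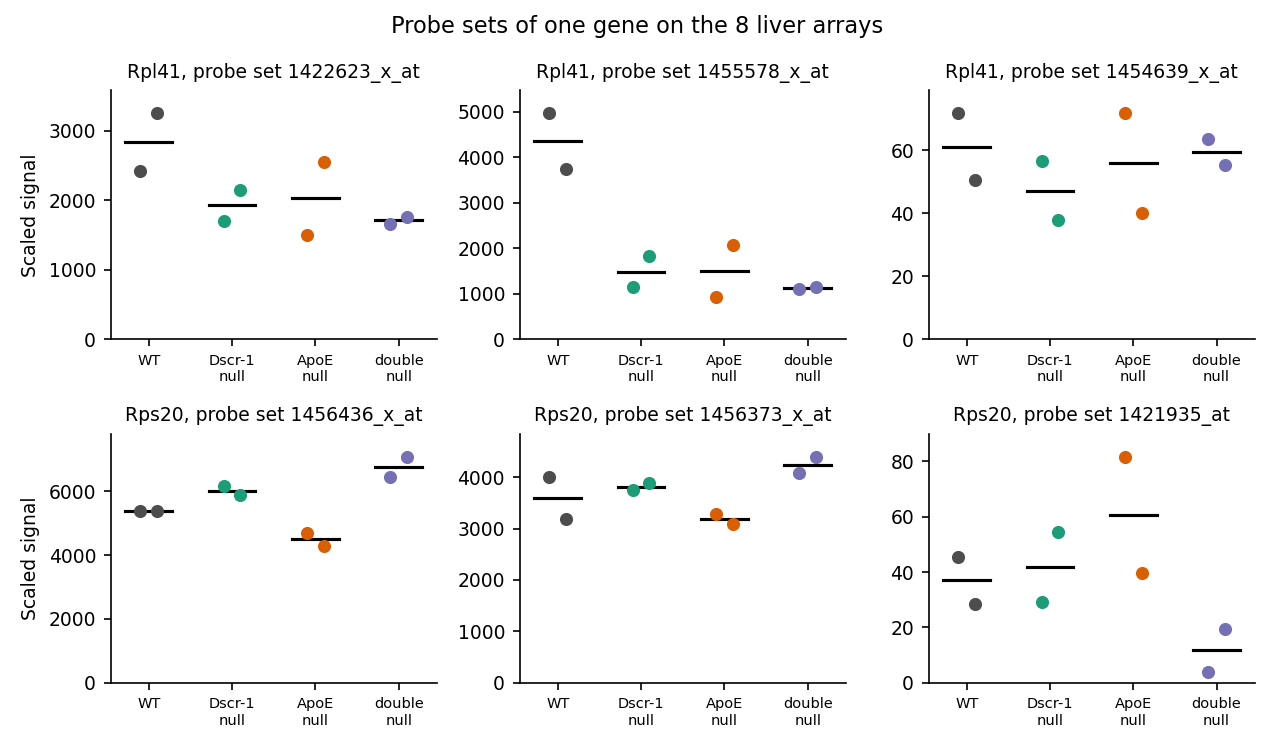
Scaled signal of 3 of the 4 probe sets of Rpl41 (top) and 3 of the 4 of Rps20 (bottom) on the 8 liver arrays, each panel on its own linear axis from 0. Points are arrays and bars are means of the 2 arrays of a genotype. Both WT arrays are above every mutant array on the middle Rpl41 panel and on neither of the others, and Rps20 is highest in double null on its 2 bright probe sets and lowest there on the dim one.

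The remaining members named by the same rule overlapped between most genotypes. Rps9, a small subunit protein needed for accurate decoding, read 1941.1 and 1643.3 in WT and 821.9 to 1705.4 on the mutant arrays, with a log2 difference from WT of -0.45 for Dscr-1 null, -0.59 for ApoE null and -0.36 for double null livers (each ± 0.45). Its probe sets differed in direction for Dscr-1 null against WT. The mean of them gave 0.1298 there, and a further probe set without the _x_at or _s_at ending gave 0.8473. Rpl27a, a large subunit protein, read 486.1 and 637.6 in WT and 381.5 and 334.0 in ApoE null livers, which did not overlap (-0.62 ± 0.39, limma adjusted p = 0.865). Rps6 read 201.7 and 213.6 in WT and 147.1 to 302.4 on the mutant arrays. Rpl10a, a large subunit protein, read 3054.1 and 3239.2 in WT against 2329.5 and 2846.4 in Dscr-1 null livers, which did not overlap (-0.29 ± 0.35), but overlapped between all arrays with and all without Dscr-1 (-0.20 ± 0.25, limma adjusted p = 0.997). Rpl39 ranged from 86.0 to 298.7, and these extremes were the 2 ApoE null arrays. A bright probe set that Rpl39 shares with another locus ranged from 12578.7 to 15560.0. Rps4x ranged from 3514.9 to 5931.1 and its paralogue Rps4l from 78.1 to 197.8, each with overlapping genotypes. Rpl22 ranged from 4435.4 to 5838.5 and its paralogue Rpl22l1 from 941.5 to 1737.8. Rps19 ranged from 770.9 to 1367.9, lowest on ApoE null replicate 1, and Rps19bp1 from 120.2 to 176.3.

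Loss of Dscr-1 on the ApoE null background was the comparison made in both tissues. In liver 40 of 47 members were higher in double null than in ApoE null, with medians of 0.176 (large) and 0.227 (small), and a median of 0.004 for all genes. The groups did not overlap for 17 members that were higher (16.6% of all genes) and 1 that was lower (15.6%), and 4 differed by more than 1.5-fold (26.7%). Without ApoE null replicate 1, 26 of 47 were higher and the medians were 0.1134 and 0.0175. The double null arrays were then above the remaining ApoE null array for 20 members (35.4% of all genes) and below it for 15 (32.9%). These values share their ApoE null arrays with the comparison to WT above. The interaction, which asks whether Dscr-1 loss acted differently with and without ApoE, was above 0 for 44 of 47 members, with medians of 0.340 and 0.276, and for 33 of 47 without that array. No member was called for it, the lowest limma adjusted p was 0.962, and 5 members lay over 1.5-fold from 0 (37.4% of all genes). Over all ApoE-lacking against all ApoE-intact livers 36 members were lower, with medians of -0.090 and -0.086, and without that array 27 were lower, 9 of the 22 of the small subunit, with medians of -0.0532 and 0.0117. In 0 members did the groups not overlap (2.24% of all genes higher, 1.63% lower), and 1 differed by more than 1.5-fold (15.9%). Over all Dscr-1-lacking against all Dscr-1-intact livers 33 were higher, with medians of 0.038 and 0.083. Leaving out each array in turn gave -0.007 to 0.1195 for the large and -0.0445 to 0.1685 for the small subunit, so that neither median kept its direction. The groups did not overlap for 2 that were higher (1.5% of all genes) and 0 that were lower (1.34%), and 1 member differed by more than 1.5-fold (13.2%).

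In aortic endothelial cells the observed differences of most members between double null and ApoE null arrays were small. With 2 arrays per genotype this does not show that levels were alike. Of 48 members 35 were lower and 13 higher, with medians of -0.041 (large) and -0.021 (small) against -0.009 for all genes, and the median size of a member's difference was 0.0407 against 0.1306 for all genes. The groups did not overlap for 10 members that were lower (14.3% of all genes) and 2 that were higher (16.8%), and 1 differed by more than 1.5-fold (6.86%). Members at the top of the scale hardly moved: Rplp2 read 13.89 and 13.88 in ApoE null cells, and 13.85 and 13.87 in those of the double null on the log2 scale. Rplp0 read 13.69 and 13.75 against 13.68 and 13.81, and Rpsa 13.43 and 13.20 against 13.37 and 13.32, so that both overlapped.

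The members with the widest aortic differences were dim ones. Rps4l, a paralogue of Rps4x, read 7.58 and 7.16 in ApoE null cells, and 7.86 and 8.38 in those of the double null. Both double null arrays were higher, and the difference was 0.75 ± 0.26 (95% interval 0.08 to 1.41, unadjusted p = 0.0344, limma adjusted p = 1.0). Its parent Rps4x read 13.46 and 13.53 against 13.52 and 13.51. Rpl12, which lines the base of the stalk, read 7.10 and 6.86 against 7.20 and 7.60 on its one-gene probe set, a difference of 0.42 ± 0.21, and a brighter probe set shared with pseudogenes overlapped, at 13.24 and 13.19 against 13.18 and 13.32.

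Rpl39l, the testis form of Rpl39, read 6.74 and 6.02 in ApoE null cells, and 6.00 and 5.69 in those of the double null, a difference of -0.54 ± 0.29. Its parent Rpl39 read 6.41 and 6.66 against 6.44 and 6.45 on its dim one-gene probe set. On a bright probe set that Rpl39 shares with another locus it read 13.68 and 13.96 against 13.64 and 13.93. Rps6 read 9.57 and 9.35 against 9.38 and 8.88, a difference of -0.33 ± 0.23, with overlapping groups. A bright probe set that Rps6 shares with a pseudogene read 13.88 and 13.93 against 13.87 and 13.81. None of these passed the test over all genes with all 4 arrays. Without double null replicate 1, 4 members were called, Rps4l and Rpl12 higher and Rpl39l and Rps6 lower, with limma adjusted p of 0.000349, 0.026, 0.0259 and 0.0398 and the lone double null array assumed to vary like the ApoE null pair. In that fit 16.9% of all genes were called (1964 of 11647), so that the share of members, 4 of 48, lay below it. The array left out had the highest summed smooth muscle markers, 5770 against 1670 to 2350 on the others, and the fibroblast markers summed to 9220 and 10700 in double null against 4920 and 5060 in ApoE null cells. The macrophage markers summed to 2700 and 3830 in double null against 2010 and 1820 in ApoE null cells, from 5 of the 11 above the filter, while Adgre1, Cd5l, Marco, Vsig4, Timd4 and Mpeg1 were under the array median on all 4 arrays. Of the 5 tested, 4 were higher in double null cells at an unadjusted p under 0.05 in limma. Their part in these values was not tested.

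The labels place replicate 1 of both aortic genotypes in one dated set and replicate 2 in another, here called run 1 and run 2. Within run 1 the median difference of double null from ApoE null was -0.03 for the large and -0.04 for the small subunit, and within run 2 it was -0.02 for both. Of the large subunit 13 of 25 members were lower in both runs and 1 higher in both, and of the small subunit 9 of 22 were lower and 2 higher. Many of these differences are small and come from rounded values, and the share of all genes lower in both runs was not counted. Rps4l was higher in both runs, by 0.28 and 1.22, and Rpl39l lower in both, with differences of -0.74 and -0.33.

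The run left a mark on the members by kind of probe set. Of 39 member probe sets with the ending _x_at, 23 (59.0%) had both run 2 arrays above both run 1 arrays, against 32.5% of all probe sets with that ending. Their median was 0.105 higher in run 2. For the 25 member probe sets ending in plain _at the median was -0.04, and for all genes tested it was -0.0975. Both genotypes are present in each run, so this difference cancels from the difference of genotype means, but it enters the spread within a genotype, and with it the standard errors and p-values of the fit without a term for the run.

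**Figure D5:**
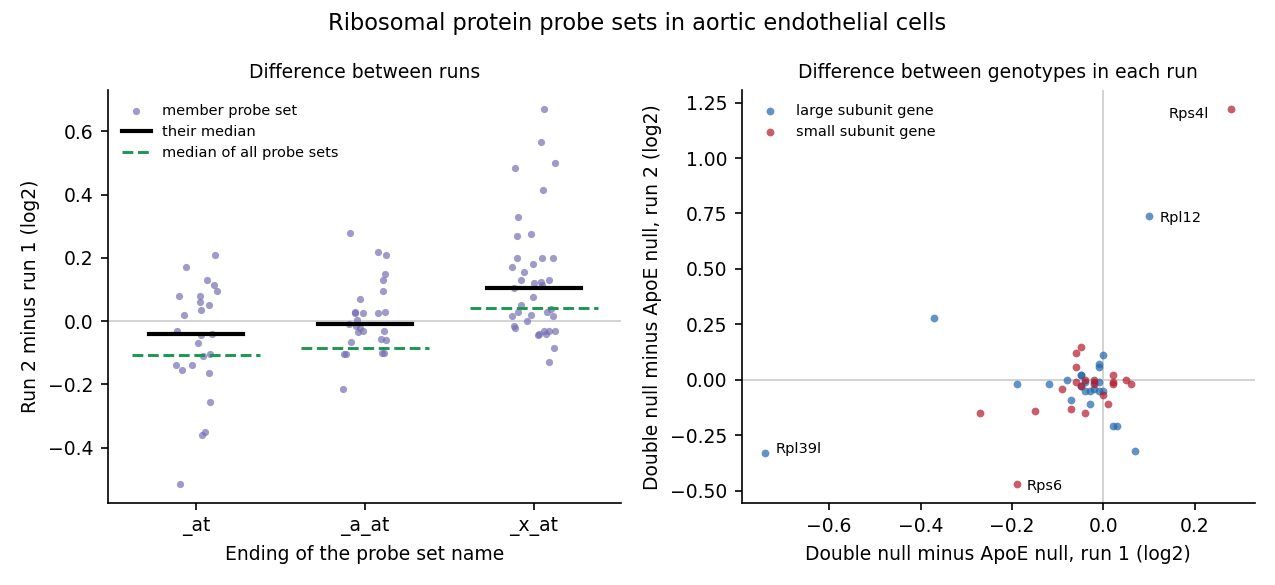
Left, difference between runs (run 2 minus run 1, log2) of each member probe set in aortic cells by the ending of its name, with the medians of members (black) and of all probe sets with that ending (green dashes). The _x_at sets lie higher, at a median of 0.105. Right, difference between genotypes (double null minus ApoE null, log2) in run 1 against run 2, for the probe set that stands for each of 47 genes. Most genes sit near 0 in both, and Rps4l stands out at 0.28 and 1.22.

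Genes that make, control or use ribosomes were read beside the members from lists written for this work. None was called in any comparison. Of 47 ribosome biogenesis factors 33 were lower in ApoE null against WT livers, with a median of -0.14, and 25 were higher in double null against ApoE null livers, with a median of 0.03. Nop14, a factor of the small subunit processome, read 23.9 and 68.1 in ApoE null livers, and 104.6 and 155.9 in those of the double null, and 61.3 and 96.8 in WT (1.31 ± 0.47, unadjusted p = 0.0236, limma adjusted p = 0.673). In aortic cells 43 of the 47 factors were higher in double null cells, with a median of 0.15 (52.0% of all genes were lower there), and none passed an unadjusted p under 0.05. The lowest p was that of Nop56, a core box C/D snoRNP protein, at 9.03 and 8.99 in ApoE null cells, and 9.24 and 9.76 in those of the double null.

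Fau, which encodes a small subunit protein under another symbol, read 1960.1 to 3002.8 over the 8 livers with ApoE null replicate 1 lowest. Other mRNAs known for a pyrimidine tract, 16 in all, had 12 lower in ApoE null against WT livers and a median of -0.14. Among them Vim, which encodes the filament protein of mesenchymal cells, read 108.4 to 171.6 on the ApoE-intact arrays and 254.3 to 389.7 on the ApoE-lacking arrays (0.999 ± 0.28, unadjusted p = 0.00798, limma adjusted p = 0.622). Of 28 initiation factors 19 were lower in ApoE null against WT, and Eif2s2, the beta subunit of eIF2, read 663.6 and 899.8 in ApoE null against 1269.5 to 1909.0 on the other 6 arrays. Of 13 elongation and release factors 9 were lower there. Gspt2, the release factor eRF3b, was dim, at 13.9 and 15.1 in WT, 45.8 and 73.5 in Dscr-1 null, 6.6 and 48.0 in ApoE null livers, and 19.5 and 23.7 in those of the double null (1.29 ± 0.52 in Dscr-1 null against WT, unadjusted p = 0.0399, limma adjusted p = 0.999). Without ApoE null replicate 1, the numbers lower in ApoE null against WT were 23 of the 47 biogenesis factors, 6 of the 16 other mRNAs with a tract, 17 of the 28 initiation factors and 5 of the 13 elongation and release factors.

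Among 25 genes of mTORC1 and Myc control, 16 were lower in ApoE null against WT livers, and 9 without ApoE null replicate 1. Max, the partner of Myc, was dim as well, at 64.7 and 39.5 in WT, 32.9 and 14.4 in Dscr-1 null, 18.4 and 6.6 in ApoE null livers, and 47.4 and 99.5 in those of the double null (1.62 ± 0.48 in double null against ApoE null, unadjusted p = 0.00994, limma adjusted p = 0.6). Myc itself was dim, at 49.0 and 4.8 in WT, 35.8 and 5.4 in Dscr-1 null, 13.1 and 5.9 in ApoE null livers, and 97.4 and 44.8 in those of the double null, and its WT and double null arrays overlapped. Of the 6 genes of the surveillance of free ribosomal proteins, Mdm2, the p53 ubiquitin ligase that free Rpl11 binds, read 49.6 and 55.3 in double null livers and 91.3 to 170.1 on all others (-0.98 ± 0.38 against ApoE null, unadjusted p = 0.0327, limma adjusted p = 0.7). Rpl11 itself read 2543.8 and 2291.5 in WT, 2075.2 and 2261.5 in Dscr-1 null, 1419.6 and 2150.6 in ApoE null livers, and 2099.3 and 2405.9 in those of the double null, with overlap between WT and double null.

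Of 14 RNA polymerase I genes and factors, Polr1a, the largest subunit, read 14.2 and 13.8 in Dscr-1 null against 72.0 and 58.2 in WT livers (-1.43 ± 0.46, unadjusted p = 0.0151, limma adjusted p = 0.903), the Dscr-1 null values being under those arrays' medians of 35.4 and 32.6. Of 17 genes of the RNA polymerase III and 5S list, Polr3d read 4.0 and 4.4 in WT and 33.9 to 85.5 on the mutant arrays (unadjusted p = 0.00214, limma adjusted p = 0.658 in double null against WT). Its WT values lie under those arrays' medians of 32.2 and 34.7, so that no exact difference is given. Of 18 ribosome-associated chaperones 16 were lower than WT in ApoE null livers and 14 in those of the double null, with medians of -0.16 and -0.25 (11 in ApoE null without replicate 1), and none passed an unadjusted p under 0.05.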

How the data were processed

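RNA from liver and from cultured aortic endothelial cells was hybridised to Affymetrix Mouse Genome 430 2.0 arrays. The liver values are deposited as linear intensity. The authors' methods give the MAS5 algorithm with each array's average set to one value, and the mean without the top and bottom 2% of probe sets was 99.3 on every liver array. The aortic values are deposited as log2 values, and the sources used here do not give how they were normalized. Depth does not apply to arrays, and their number limits the precision. Probes were named from the platform annotation: 34945 probe sets have 1 gene and 932 several. The 106 member probe sets were all matched to RefSeq by gene number.

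Liver values were used as log2(signal + 16), so that differences of dim genes are understated. Probe sets were kept where 2 or more arrays of a tissue read above their own median (32005 in liver, 22927 in aortic cells) and fitted with limma 3.58.1 in R 4.3.3, with 1 mean per genotype, separately by tissue. P-values were adjusted by Benjamini-Hochberg over all of them. The script was tested on simulated data. A gene's value is that of its brightest one-gene probe set. Samples were grouped by their titles, which name ApoE null as the aortic control. Replicate numbers were read as pairs in aortic cells, where the labels put equal numbers in one dated set (correlation of deviations 0.297), and not in liver (-0.00155 to 0.0293). The main aortic fit has no term for these pairs, so its standard errors, intervals and p-values are unpaired. The pairs enter only as the replicate block among the alternatives.

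Members, gene lists and tests were chosen with earlier results of these data known. Named were, in each comparison, the 3 largest rises and falls, the stalk proteins and Rpsa, paralogues with their parents, members with known extra roles, members apart in 1 genotype, and genes among those with the lowest p in the lists. Alternatives were other offsets, scalings, filters, probe set choices, a replicate block, a trend and the methods' t-test, and leaving out each array. Start windows are those of RefSeq, GRCm38.p6.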

Additional observations from a re-analysis of the deposited data

Results flagged for a closer look

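In 3 members, on the probe set that stands for each, both double null arrays were above both ApoE null arrays in liver and below both in aortic cells. Rpl13a differed by 0.394 (log2, double null minus ApoE null) in liver and by -0.041 in aortic cells. Rpl27 differed by 0.2692 in liver and by -0.034 in aortic cells, and Rpl35 by 0.4296 and by -0.0407. Over all genes 16.6% were higher without overlap in liver and 14.3% lower without overlap in aortic cells, and the share with both was not counted. Among the members themselves these were 17 of 47 and 10 of 48, so no result is read from the count of 3. Further probe sets of these genes did not all repeat this. In aortic cells 1 further set of Rpl13a differed by -0.04 in run 1 and 0.1 in run 2. For Rpl35 a further set differed by -0.18 and 0.03, and for Rpl27 by -0.05 and 0.04, while another Rpl27 set was lower in both runs (-0.05 and -0.24). In liver a further Rpl13a set overlapped and another repeated the order. ApoE null replicate 1 was the lowest of the 8 liver arrays for Rpl13a and Rpl27. The aortic differences are under 0.05 on the log2 scale. At 2 decimals the aortic groups of Rpl27 touch at 12.98 and those of Rpl35 at 13.4. The values of the tissues were normalized separately, and the difference between tissues was not tested.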

How the results depend on the processing

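With 2 arrays per genotype, wide intervals remain, and dim probe sets sit near background. Under every alternative run, 0 members were called in each liver comparison, the methods' t-test after adjustment and the replicate block included. In aortic cells 0 were called with all arrays and with the replicate block, whereas leaving out each array gave 0 to 4, the 4 without double null replicate 1. The median difference of the small subunit depended on the ApoE null arrays: leaving out each array gave -0.4958 to 0.0005 in ApoE null against WT, 0.0175 to 0.4692 in double null against ApoE null, and 0.0676 to 0.5637 for the interaction, the values nearest 0 being those without ApoE null replicate 1. Chosen after seeing the data, a count without that array gave 27 members lower in ApoE null against WT and 26 higher in double null against ApoE null, and 11 members higher and 15 lower in these comparisons without overlap. Centring the arrays on their medians gave aortic medians of -0.0059 (large) and 0.0135 (small), and 46 members lower in ApoE null against WT livers, where it moved the median of all genes to -0.1583.

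Among single genes 19 values reversed, and the cause was not tested. With the mean of all probe sets these were Rps9 (0.1298) and Rps3 (0.0159) in Dscr-1 null against WT, Rps29 (-0.0652) in ApoE null against WT and Rpl41 (0.0156) in double null against ApoE null. Without the _x_at and _s_at probe sets they were Rpl41 (0.0562) and Rps9 (0.8473) in Dscr-1 null against WT, and Rpl41 in double null against ApoE null (0.4614) and with Dscr-1 lacking (0.2588). In ApoE null against WT, quantile normalization gave 0.1384 for Rpsa and centring gave -0.1036 for Rps29. Leaving out 1 array reversed Rpsa in ApoE null against WT (-0.2571 to 0.2527, at 0.2209 without WT replicate 2), Rps25 in double null against WT (-0.0953 to 0.9846), in double null against ApoE null (-0.3818 to 0.0476) and with ApoE lacking (-0.0742 to 0.4657), Rpl41 in double null against ApoE null (-0.5734 to 0.1863), Rpl14 in the interaction (-1.099 to 0.1871), Rpl39 with Dscr-1 lacking (-0.6415 to 0.1712) and Rps19bp1 in aortic cells (-0.0401 to 0.1546). Of the other values of single genes, 754 kept their direction and side of the threshold and 4 gained a call, the aortic ones above.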
